A study of Mus musculus with 22 samples.

Results

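The genes described here are fast skeletal muscle genes read in libraries of spinal cord, a tissue that holds no skeletal muscle fibres. They were picked by gene symbol as a sign of muscle RNA in the libraries: Acta1, Ckm, Mylpf, Myl1, Tnnc2, Tnnt3, Atp2a1, Tcap, Myh4 and Mb. Of these 10 symbols, 8 are among the 17306 genes of the table, and Myl1 and Tcap were not analysed here. The choice was made with the levels of such genes in these libraries already known, so the levels below are a description of the libraries, and the comparisons between groups lend the choice no support.

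RNA was sequenced from lumbar (L4-L6) spinal cord of 22 wildtype C57BL6J mice aged 12 to 14 weeks. The methods describe quadrants of the cord on the side of the injected knee. All mice had received 1 mg of monoiodoacetate (MIA), a glycolysis inhibitor that damages cartilage, in the knee joint, and tissue was taken on day 30, with no uninjured group. SAFit2, an inhibitor of the stress-related co-chaperone FKBP51, was given at 100 mg/kg under the skin in a vesicular phospholipid gel that releases it slowly, and Vehicle mice received the gel alone. The Early SAFit2 (n = 5) and Early Vehicle (n = 6) mice were injected on days -3 and 4 and the Late SAFit2 (n = 5) and Late Vehicle (n = 6) mice on days 20 and 27. The days of the early groups are those of the series design, while the sample labels give another first day, and for Early SAFit2 the sample names say SAFit1 although the labelled treatment, used here, is SAFit2. The labels name Early and Late as batches, so timing and batch cannot be told apart. Each library had between 11352989 and 24433349 reads on genes.

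Skeletal muscle fibres are built of repeating sarcomeres, in which myosin heads pull on actin filaments. Calcium released from the sarcoplasmic reticulum binds troponin, which shifts tropomyosin along the actin and so lets the heads attach. Fast and slow fibres carry different genes for myosin, troponin and the calcium pump. Many of these genes are switched on by myogenic factors that bind E-boxes, short sites with the letters CANNTG. Muscle lies against the vertebrae that enclose the cord.

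The upstream sequences of 4 of the 8 genes are shown because the report turns on genes of separate chromosomes or loci that were high in the same libraries. They are the 250 bases before the RefSeq start of each gene (GRCm38.p6), 5′ to 3′, with each CANNTG (the E-box, which reads the same on both strands in this notation) and each TATAAA or its reverse complement in capitals.
Myh4 promoter, chr11:67237562-67237811, plus strand: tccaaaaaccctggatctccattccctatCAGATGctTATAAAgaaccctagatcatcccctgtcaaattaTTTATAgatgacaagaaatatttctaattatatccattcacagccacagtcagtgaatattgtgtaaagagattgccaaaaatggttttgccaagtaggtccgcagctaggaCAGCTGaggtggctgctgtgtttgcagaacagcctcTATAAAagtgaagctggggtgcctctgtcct
Ckm promoter, chr7:19410844-19411093, plus strand: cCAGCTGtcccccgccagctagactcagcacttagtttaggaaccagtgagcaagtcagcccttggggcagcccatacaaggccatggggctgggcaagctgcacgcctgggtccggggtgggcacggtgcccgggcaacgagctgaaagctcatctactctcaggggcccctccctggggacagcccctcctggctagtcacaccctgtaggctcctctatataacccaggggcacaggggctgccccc
Tnnc2 promoter, chr2:164779735-164779984, minus strand: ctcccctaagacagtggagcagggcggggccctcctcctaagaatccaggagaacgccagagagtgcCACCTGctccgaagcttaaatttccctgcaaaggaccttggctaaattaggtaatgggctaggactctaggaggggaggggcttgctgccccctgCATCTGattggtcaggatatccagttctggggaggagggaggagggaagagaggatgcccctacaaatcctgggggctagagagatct
Acta1 promoter, chr8:123894776-123895025, minus strand: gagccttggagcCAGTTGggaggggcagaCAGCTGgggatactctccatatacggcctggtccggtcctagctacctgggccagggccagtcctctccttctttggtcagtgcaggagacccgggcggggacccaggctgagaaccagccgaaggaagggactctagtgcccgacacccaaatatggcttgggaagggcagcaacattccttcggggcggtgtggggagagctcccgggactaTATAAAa
The windows of Myh4, Tnnc2 and Acta1 each held 2 E-boxes and that of Ckm held 1. TATAAA stood in the Myh4 window 3 times in all, in the Acta1 window 1 time, and in neither of the others. Of 32851 RefSeq promoter windows of the same length, 66.2% held at least 1 E-box and 31.8% held 2 or more, while 12.4% held TATAAA, so an E-box alone is common. Such matches describe letters in a window and not a bound site.

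Reads of the 8 genes were concentrated in a pair of libraries, replicates 3 and 5 of Late SAFit2. The 8 genes together had 4490 reads, or 242 CPM (reads scaled to library size), in replicate 3 and 1578 reads (177 CPM) in replicate 5. The other 20 libraries lay between 1.87 CPM (Early Vehicle replicate 5) and 11.4 CPM (Early SAFit2 replicate 4). Both libraries belong to 1 group, and the other replicates of that group, at 3.32 CPM in replicate 1, 6.43 CPM in replicate 2 and 2.40 CPM in replicate 4, lay within the range of the other groups. These genes were 0.0229% of the reads on genes in replicate 3 and 0.0137% in replicate 5. The pair was singled out by these same values, and nothing was tested between it and the other libraries. In bulk RNA, more muscle cells and more RNA per cell cannot be told apart.

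**Figure D1:**
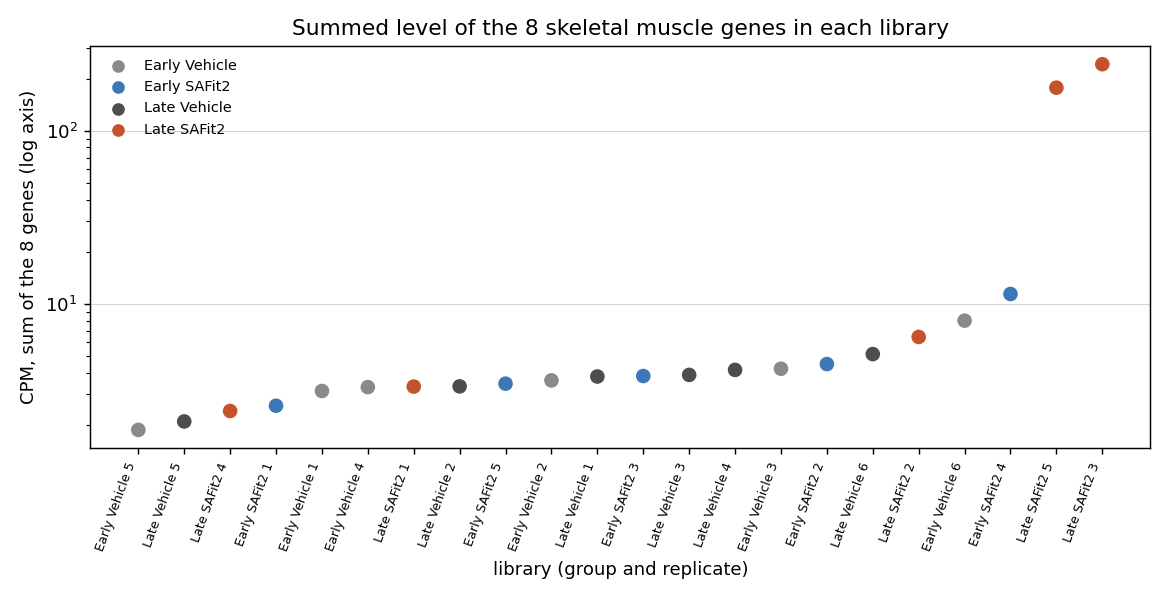
Summed CPM of the 8 skeletal muscle genes (log axis) in each of the 22 libraries, ordered from low to high and coloured by group. Late SAFit2 replicates 3 (242 CPM) and 5 (177 CPM) stand apart from the other 20 libraries, of which the highest is Early SAFit2 replicate 4 at 11.4 CPM.

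Myh4 encodes the myosin heavy chain of the fastest mouse fibres. It had 1336 reads (72.1 CPM) in Late SAFit2 replicate 3 and 447 reads (50.2 CPM) in replicate 5, against 0, 14 and 0 reads in replicates 1, 2 and 4. In Late Vehicle the reads were 1, 2, 0, 0, 0 and 8 in replicates 1 to 6, in Early SAFit2 2, 0, 2, 33 and 2, and in Early Vehicle 0, 2, 15, 0, 0 and 36. The pair of high libraries was 41.6 and 29.0 times the third highest, Early SAFit2 replicate 4 at 1.73 CPM. A small further set of libraries, which were Early SAFit2 4, Early Vehicle 3 and 6, Late SAFit2 2 and Late Vehicle 6, held between 8 and 36 reads, where the remaining 15 held at most 2.

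The troponin genes followed. Tnnt3 encodes fast troponin T, which ties the troponin complex to tropomyosin, and had the most reads of the 8. It had 1427 reads (77.0 CPM) and 483 reads (54.2 CPM) in Late SAFit2 replicates 3 and 5, and 6, 26 and 3 reads in replicates 1, 2 and 4. Late Vehicle mice had 7, 14, 3, 3, 2 and 13 reads, Early SAFit2 mice 0, 1, 10, 50 and 2, and Early Vehicle mice 1, 11, 17, 4, 6 and 32. The groups overlapped below the 2 high libraries, and the library with 50 reads was again Early SAFit2 replicate 4. Tnnc2 encodes fast troponin C, the calcium-binding subunit, and had 409 reads (22.1 CPM) and 158 reads (17.7 CPM) in the same pair. It was at 0 reads in 13 of the 22 libraries, among them 5 of 6 Late Vehicle libraries, and the highest value outside the pair was 29 reads in Early SAFit2 replicate 4.

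Atp2a1 encodes SERCA1, the pump that returns calcium to the sarcoplasmic reticulum of fast fibres. It had 389 reads (20.98 CPM) and 146 reads (16.4 CPM) in Late SAFit2 replicates 3 and 5, and 1, 0 and 0 reads in replicates 1, 2 and 4. Late Vehicle mice had 1, 4, 0, 0, 0 and 5 reads, Early SAFit2 mice 1, 2, 3, 14 and 4, and Early Vehicle mice 4, 7, 11, 4, 4 and 28. Atp2a1 was thus read in every early library, at low counts, but in 6 of the 11 late libraries. Ckm encodes the muscle creatine kinase, which restores ATP from phosphocreatine. Its reads were 228 (12.3 CPM) and 78 (8.76 CPM) in the pair and between 0 and 18 in the other 20, where the highest was Early Vehicle replicate 4 at 1.35 CPM.

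Acta1 and Mylpf had a low level in nearly all libraries as well as the high level in the pair. Acta1 encodes the actin of the skeletal muscle thin filament and had 410 reads (22.1 CPM) and 168 reads (18.9 CPM) in Late SAFit2 replicates 3 and 5, and 21, 15 and 15 reads in the others of the group. Late Vehicle mice had 25, 26, 26, 37, 20 and 16 reads, Early SAFit2 mice 9, 36, 19, 47 and 17, and Early Vehicle mice 18, 22, 23, 11, 4 and 48. Without a gap between them, those 20 libraries had a median of 1.14 CPM, so the high pair was 19.5 and 16.6 times that median. The protein that Acta1 encodes is nearly identical to other actins, and whether its low level holds reads of those genes was not tested.

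Mylpf encodes the phosphorylatable light chain of fast myosin. It had 237 reads (12.8 CPM) and 98 reads (11.004 CPM) in the pair and a median of 22.5 reads in the other 20, with 53 in Late Vehicle replicate 1 and 0 in Early Vehicle replicate 4. The pair was 5.65 and 4.86 times the third highest library, the least separation of the 7 genes that were high in both. Late Vehicle replicate 1, the third highest for Mylpf, had 1 read of Myh4 and 0 of Tnnc2, so the order of the lower libraries differed between genes.

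Mb, which encodes myoglobin, the oxygen store of oxidative and cardiac muscle fibres, differed from the other 7. It had 54 reads (2.91 CPM) in Late SAFit2 replicate 3 and 0 in replicate 5, where 3 reads would be 0.337 CPM. The Mb reads in the other Late SAFit2 libraries were 7, 1 and 1, in Late Vehicle 2, 1, 8, 5, 7 and 0, in Early SAFit2 0, 8, 9, 4 and 5, and in Early Vehicle 5, 7, 16, 7, 0 and 2. The highest of these 20 was 0.597 CPM in Early Vehicle replicate 3, and Mb was below the filter on low values in 14 libraries.

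**Figure D2:**
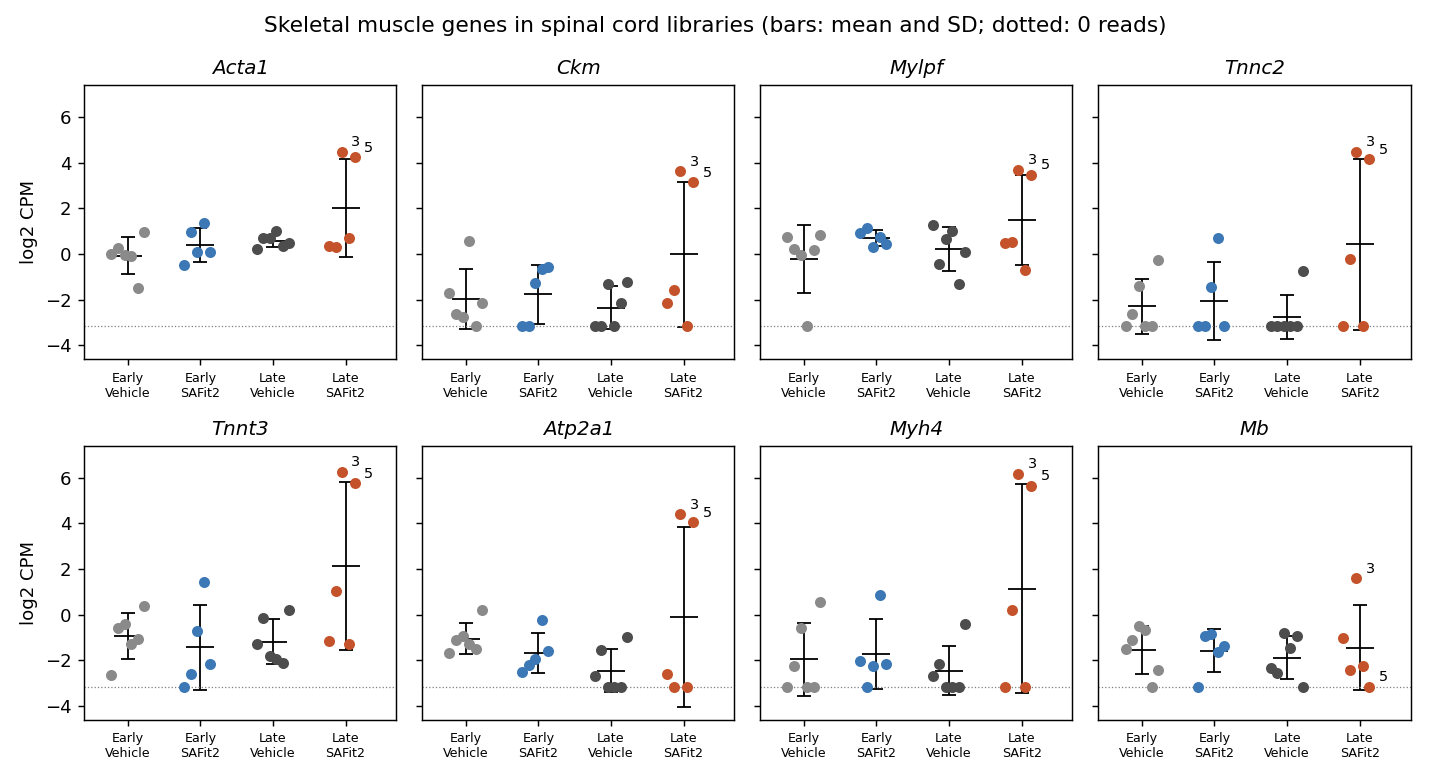
Deposited log2 CPM of each gene in the 22 libraries (points), by group, with the group mean and SD (bars) and the floor of 0 reads (dotted line). The points numbered 3 and 5 are the Late SAFit2 replicates, which lie above all other points for 7 of the 8 genes, while for Mb replicate 3 is at 1.60 and replicate 5 at the floor.

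Per kilobase of the longest annotated transcript, the 8 genes stood in the same order in both high libraries. Tnnt3 led with 71.3 CPM per kb in replicate 3 and 50.3 in replicate 5, followed by Tnnc2 at 31.5 and 25.3 CPM per kb, Mylpf at 16.7 and 14.4, Acta1 at 15.3 and 13.0, and Myh4 at 12.0 and 8.34. Atp2a1 had 6.03 and 4.71 CPM per kb, Ckm 4.48 and 3.19, and Mb 2.64 and 0. The CPM in replicate 5 was between 0.697 (Myh4) and 0.861 (Mylpf) times that in replicate 3 for the 7 genes read in both. The exact 95% interval, which covers counting error only, was 0.624 to 0.776 for Myh4, 0.634 to 0.782 for Tnnt3 and 0.673 to 1.09 for Mylpf. For Mb the ratio was 0 with an upper bound of 0.147, below the intervals of the other 7 genes.

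The table does not separate strands, and the strand setting of the counting is not given in the sources used here. In GENCODE M21 (GRCm38), Atp2a1 (chr7:126445858-126463108, minus strand) overlaps Rabep2 on the other strand, Tnnc2 (chr2:164777161-164779967, minus) overlaps Ube2c, and Tnnt3 (chr7:142498836-142516009, plus) overlaps Prr33. Ckm (chr7:19404776-19422841, plus), Acta1 (chr8:123891769-123894751, minus) and Mb (chr15:77015487-77050670, minus) also overlap genes of the other strand. Mylpf (chr7:127208890-127214298, plus) and Myh4 (chr11:67238029-67260446, plus) overlap none, and both were high in the pair. Ckm, Mylpf, Tnnt3 and Atp2a1 share chromosome 7, at separate loci.

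The comparison of SAFit2 with Vehicle asks what the inhibitor changed in the cord, and at the late timing the 8 genes had positive fold changes in all cases. On the deposited log2 scale the means of the 8 genes together were 0.70 ± 2.96 (SD, n = 5) in Late SAFit2 and -1.53 ± 0.43 (SD, n = 6) in Late Vehicle. The log2 fold changes ranged from 0.43 (Mb) to 3.59 (Myh4). With limma and Benjamini-Hochberg adjustment over the 16765 genes tested, 1 of the 8 passed (adjusted P under 0.05 and a 1.2-fold change), where 12.1% of all genes did (2021 genes). That share was itself unstable, at 0% with the 2 late groups alone or with the GC and length trend removed, 5.23% with voom, 0.37% without the variance trend, and from 1 to 4971 genes when single libraries were left out. The gene that passed was Tnnt3, with a log2 fold change of 3.30 (SE 1.08, adjusted P = 0.0476). Of the 8, 6 were at an unadjusted P under 0.05, as were 34.5% of all genes, and Ckm, Tnnc2 and Atp2a1 among the 6 had entered the test only through the 2 high libraries. The SD of the Late SAFit2 mice was larger than the difference for each of the 8. The median log2 fold change of the 8 was 2.34, and that of all genes tested was -0.05.

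Single members show the spread behind those values. Myh4 had a mean log2 CPM of 1.14 ± 4.57 (SD, n = 5) in Late SAFit2 and -2.45 ± 1.08 (SD, n = 6) in Late Vehicle, with an adjusted P of 0.0605 in limma. Tnnc2 had 0.42 ± 3.75 (SD, n = 5) and -2.75 ± 0.98 (SD, n = 6), a log2 fold change of 3.17 (SE 1.12) that did not pass (limma, adjusted P = 0.0570). Acta1 had 2.01 ± 2.15 (SD, n = 5) against 0.57 ± 0.27 (SD, n = 6), and a log2 fold change of 1.44. For these 3 genes the Late SAFit2 mean lay between 3 lower libraries and the high pair. Fold changes at such low counts depend on the prior count in the deposited values and are no bound.

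The late differences rested on the 2 high libraries. With both left out, a choice made after the data were seen, the log2 fold changes were 0.70 for Tnnt3, 0.57 for Tnnc2, 0.41 for Myh4, 0.05 for Ckm, -0.01 for Mb, -0.11 for Mylpf, -0.13 for Acta1 and -0.52 for Atp2a1. The mean difference over the 8 genes went from 2.24 to 0.12, and none of the 8 passed in limma (lowest adjusted P = 0.597, none at an unadjusted P under 0.05), where 0.00596% of all genes did. Leaving out either library alone also ended the Tnnt3 call, with its log2 fold change at 2.26 without replicate 3 (limma, adjusted P = 0.122) and 2.39 without replicate 5 (limma, adjusted P = 0.146). The call was also lost without any of 13 other libraries, but there the log2 fold change stayed between 3.11 and 4.15 and the unadjusted P was at most 0.0117, while between 1 and 1916 genes of the whole table passed. It held without Early SAFit2 replicate 1, Early Vehicle replicates 1, 4 and 5, Late SAFit2 replicate 1, and Late Vehicle replicates 2 and 6. Late SAFit2 replicate 2, the lowest of all libraries in fibroblast and meninges genes, was among the 13. Without it the log2 fold change of Tnnt3 was 3.57 (limma, adjusted P = 0.0664), and 1 gene of the whole table passed.

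**Figure D3:**
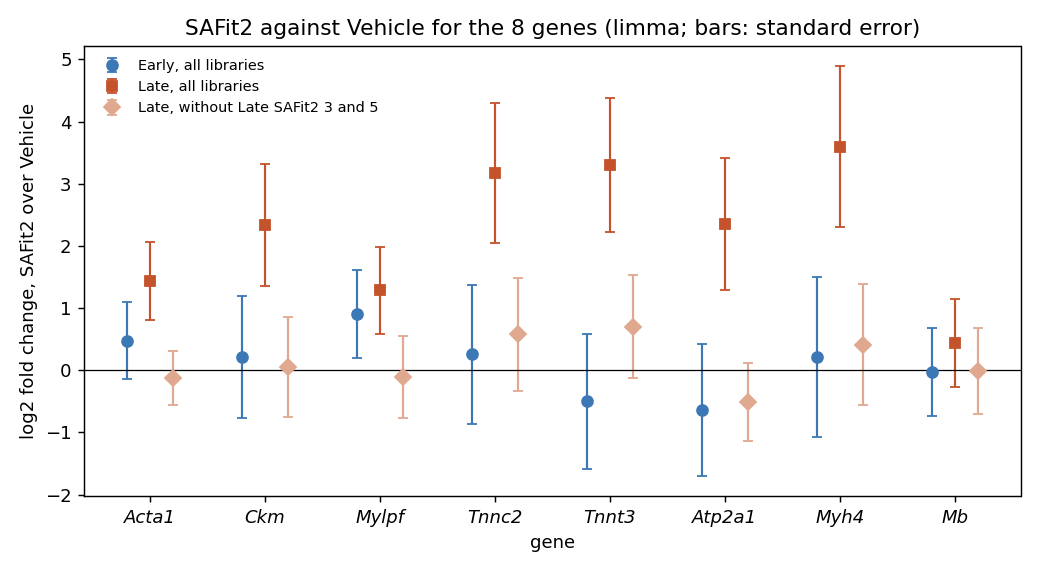
Log2 fold change of SAFit2 over Vehicle (limma, bars are the standard error) for each gene in the early groups, in the late groups, and in the late groups without Late SAFit2 replicates 3 and 5. The late values of Myh4 (3.59), Tnnt3 (3.30) and Tnnc2 (3.17) fall to 0.41, 0.70 and 0.57 without those libraries.

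The filter on low values asked for -1 or more in log2 CPM in 5 libraries and passed all 8 genes, but Ckm, Tnnc2 and Atp2a1 passed only with the help of the pair. They reached the minimum in 5, 6 and 6 libraries, of which 3, 4 and 4 were outside the pair. Myh4 reached it in 7, Mb in 8, Tnnt3 in 10, Mylpf in 20 and Acta1 in 21. Over the other 20 libraries alone, 5 of the 8 genes would have been tested.

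At the early timing none of the 8 genes passed in limma, as 0% of all genes did, and none was at an unadjusted P under 0.05 (2.48% of all genes). The means over the 8 genes were -1.14 ± 0.92 (SD, n = 5) in Early SAFit2 and -1.25 ± 0.65 (SD, n = 6) in Early Vehicle. The log2 fold changes lay between -0.64 (Atp2a1, SE 1.06) and 0.90 (Mylpf, SE 0.70). For every gene but Mylpf they were smaller than the SD of either group. The SD of Mylpf was 0.35 in Early SAFit2 and 1.48 in Early Vehicle, where replicate 4 had 0 reads. Leaving out single libraries moved the Mylpf log2 fold change between 0.31 and 1.11. The difference between the early and the late effect passed for none of the 8 genes (0% of all genes) and was at an unadjusted P under 0.05 for 1 (24.9% of all genes), Tnnt3, at an adjusted P of 0.140 in limma. Voom on the recovered reads gave 0 calls among the 8 in each of these comparisons and in the late one.

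Between timings, which are also batches, none of the 8 genes passed in the Vehicle mice in limma or with voom, where 9.11% of all genes passed, and none was at an unadjusted P under 0.05 (24.3% of all genes). In the SAFit2 mice Tnnt3 was higher in the late group by 3.56 on the log2 scale (SE 1.13, limma adjusted P = 0.0278), 1 of the 8, where 20.5% of all genes passed. That call was lost without Late SAFit2 replicate 3, Late SAFit2 replicate 5 or Early SAFit2 replicates 1, 2 or 5 (limma, adjusted P between 0.0582 and 0.101). Without both high libraries the mean difference over the 8 genes turned from 1.85 to -0.27, and none of the 8 passed, where 11.8% of all genes did.

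The wider muscle programme was read from 6 lists of 56 further muscle genes, of which 34 are in the table. Both high libraries lay above the other 20 for 12 of the 34, replicate 3 alone for 7 and replicate 5 alone for 2. Over the whole table, 105 genes (0.61%) had these libraries as their 2 highest. For 9 genes the lower of the pair was at least 4 times the third highest library, and these were the 7 described above with Tnni2 and Trdn. Tnni2, the fast troponin I, had 272 and 114 reads in replicates 3 and 5 and at most 13 elsewhere. Trdn encodes triadin, which anchors the calcium store at the junction with the surface membrane, and had 364 and 125 reads, with at most 12 elsewhere.

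Among the other genes of the fast fibre list, Actn3, an actin crosslinker of fast fibres, had 8.85 and 5.05 CPM in the pair and at most 2.48 CPM elsewhere, and Mybpc2, the fast myosin-binding protein C, 5.77 and 4.27 CPM and at most 3.04 CPM elsewhere. Pvalb, a calcium buffer that interneurons also make, had 153 and 115 CPM in the pair and up to 143 CPM elsewhere. Of the 4 fast fibre genes tested none passed late or early in limma, and Pvalb was higher in Late than in Early SAFit2 by 0.60 on the log2 scale (limma, adjusted P = 0.0279). Between SAFit2 timings 20.5% of all genes passed. The Pvalb call was lost without Late SAFit2 replicate 3 or Early SAFit2 replicates 3, 4 or 5, with adjusted P up to 0.0870 in limma.

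The giant sarcomere proteins followed the fast genes. Ttn (titin, the spring of the sarcomere) had 216 and 64 reads in replicates 3 and 5 and at most 38 elsewhere. Neb (nebulin, a ruler along the thin filament) had 49 and 24 reads with at most 21 elsewhere, and Myom2, an M-band protein, 38 and 13 with at most 11. Tpm2, a tropomyosin that smooth muscle makes too, was highest in both at 26.9 and 22.2 CPM but by little, since the next library had 19.3 CPM. Of 9 sarcomere scaffold genes tested none passed in any comparison in limma.

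Of the 6 genes on the slow fibre list, none was above the other 20 libraries in both replicates. Myh7, the slow and cardiac myosin heavy chain, had 110 and 58 reads in the pair and 69 to 340 in the others. Tnni1, the slow troponin I, had 75 and 18 reads, and 37 to 178 in the others. Of 6 slow fibre genes tested, 2 passed at the late timing, both lower in SAFit2, where 6.72% of all genes were called lower: Tnni1 by -0.94 (SE 0.26, limma adjusted P = 0.0341) and Myh7 by -0.68 (SE 0.22, limma adjusted P = 0.0458). The 2 calls were lost without any of 7 libraries for Tnni1 and of 13 for Myh7, with adjusted P up to 0.101 and 0.124 in limma and log2 fold changes that stayed between -1.11 and -0.72 and between -0.80 and -0.59, among them Late SAFit2 replicates 2, 4 and 5 in both cases and replicate 3 for Myh7. The other losses for Tnni1 were without Late Vehicle replicates 1, 3, 4 or 5, and for Myh7 without those or Early SAFit2 replicates 3, 4 or 5 or Early Vehicle replicates 2 or 6. Tnnc1, the slow and cardiac troponin C, was highest of all in replicate 5, with 29 reads (3.26 CPM), and had 15 reads in replicate 3. Tnnt1, the slow troponin T, was highest of all in replicate 3 at 1.19 CPM, with 1.01 CPM in replicate 5 and up to 1.08 CPM in the others. Mybpc1, the slow myosin-binding protein C, had 5.45 and 3.26 CPM against up to 5.52 CPM.

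**Figure D4:**
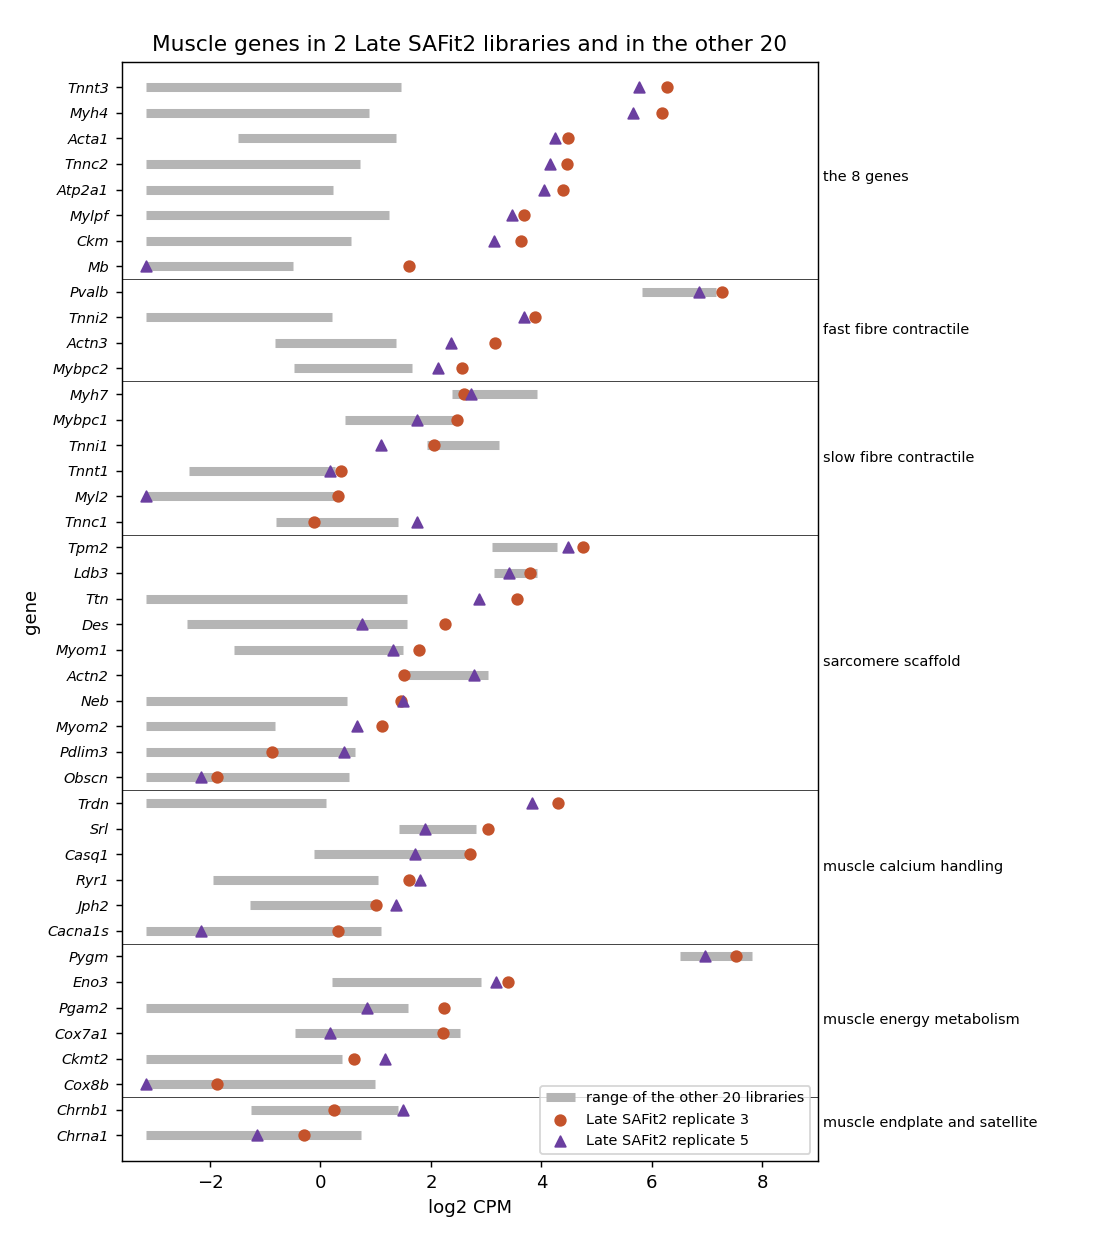
Log2 CPM of the 8 genes and of the 34 other muscle genes in the table in Late SAFit2 replicate 3 (circles) and replicate 5 (triangles), with the range of the other 20 libraries as a grey bar, grouped by list. For 12 of the 34 both symbols lie right of the bar, among them Tnni2 and Trdn, while Myh7 lies within it.

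Some muscle genes, like Mb, had far fewer reads in replicate 5 than the fast genes would give from replicate 3. They were chosen after their values were seen. Des, the muscle intermediate filament, had 86 reads in replicate 3 and 14 in replicate 5, a CPM ratio of 0.339 (exact 95% interval 0.178 to 0.600). Pgam2, the muscle phosphoglycerate mutase, had 85 and 15 reads, a ratio of 0.367 (0.197 to 0.641), and Cox7a1, a subunit of mitochondrial complex IV in muscle, 84 and 9, a ratio of 0.223 (0.0986 to 0.444). The intervals of Des and Cox7a1 lie below that of Myh4, and the interval of Pgam2 overlaps it. Myl2, the slow and ventricular light chain, had 21 and 0 reads, and Cacna1s, the voltage sensor of the muscle membrane, 21 and 1. Unlike Mb, Des and Pgam2, the genes Cox7a1, Myl2 and Cacna1s were not above the other 20 libraries in replicate 3 either, at 4.53, 1.13 and 1.13 CPM against up to 5.62, 1.21 and 2.02 CPM. Smooth muscle also makes Des. The smooth muscle genes Acta2 and Myh11 were at 11.8 and 12.5 CPM in replicate 3 and at 3.03 and 5.39 CPM in replicate 5. On the same list Lmod1 had 2.48 and 2.02 CPM and Cnn1 10 and 1 reads in replicates 3 and 5. Tagln went the other way, at 11.9 CPM in replicate 3 and 15.4 CPM in replicate 5, a ratio of 1.30 (1.04 to 1.61). The part of smooth muscle in these values was not tested.

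For the remaining muscle lists, 5 calcium handling genes were tested and none passed in limma. Besides Trdn, the calcium release channel Ryr1 (2.91 and 3.37 CPM, others up to 1.94) and Jph2 (1.89 and 2.47 CPM, others up to 1.85) were above the other 20 in both. Of 4 energy metabolism genes 1 passed, between Vehicle timings, where 9.11% of all genes did. It was Pygm, the muscle form of glycogen phosphorylase that astrocytes also make, higher in Late than in Early Vehicle by 0.76 on the log2 scale (limma, adjusted P = 0.00178). Pygm lay within the range of the other libraries in both replicates, at 184 and 125 CPM, while Eno3, the muscle enolase (10.4 and 8.98 CPM, others up to 7.35), and Ckmt2, a mitochondrial creatine kinase (26 and 19 reads, others up to 15), were above it in both. The 2 endplate genes tested, Chrna1 and Chrnb1, did not pass, and the other 8 of that list, myogenic factors included, were not analysed here. Of 5 cardiac genes 2 were lower in Late than in Early SAFit2, where 20.5% of all genes passed and 1894 of 16765 were lower. They were Myh6 by -2.62 (limma, adjusted P = 0.00207) and Nppa by -1.10 (limma, adjusted P = 0.0468). Timing and batch cannot be told apart in these comparisons. The Nppa call was lost without any of 15 libraries, and held without Early SAFit2 replicate 2, Early Vehicle replicates 1, 4 and 5, Late SAFit2 replicate 3, and Late Vehicle replicates 2 and 6 (adjusted P up to 0.122 in limma when lost). None of 5 smooth muscle genes passed.

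As sums over each list, markers of the cord itself lay within the range of the other libraries in the high pair. Summed over the list, 4 oligodendrocyte genes stood at 17197 and 20126 CPM in replicates 3 and 5 and between 13194 and 30023 CPM in the others. The 6 neuron genes stood at 4374 and 4704 CPM (3218 to 4779 in the others), the 4 astrocyte genes at 4300 and 4247 CPM (2669 to 5326) and the 4 microglia genes at 156 and 191 CPM (125 to 193). The 4 motor neuron genes differed within the pair, at 150 CPM in replicate 3 and 24.1 CPM in replicate 5, with up to 222 CPM in the others. Single genes fell just below the range of the others, which were Gfap in replicate 3 (731 CPM, others from 758), and Rbfox3 (126 CPM, others from 131) and Mag (392 CPM, others from 398) in replicate 5.

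Tissues beside the cord moved in their own way. The 5 fibroblast and meninges genes ranked 8 and 1 of the 22 libraries in replicates 3 and 5, at 223 and 522 CPM. Late SAFit2 replicate 2 was lowest in this list, at 48.9 CPM, and had the fifth highest sum of the 8 muscle genes. The 4 bone and cartilage genes ranked 5 and 22, at 3.88 and 1.01 CPM, the 4 red cell genes 5 and 8, at 685 and 589 CPM, and the 2 genes of sensory ganglion neurons 6 and 2, at 3.99 and 5.95 CPM. The part of any of these tissues in the muscle values was not tested. The 5 adipocyte genes were not analysed here, and the 4 Y-linked genes had reads in all 22 libraries.

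In these lists 1 of 6 neuron genes and 2 of 4 Y-linked genes tested passed at the late timing in limma. No gene of the other lists described here did, where 12.1% of all genes passed (9.11% between Vehicle timings and 20.5% between SAFit2 timings). The late calls over all genes ran from 1 to 4971 when single libraries were left out. Slc32a1, the inhibitory vesicle transporter, was lower by -0.55 (adjusted P = 0.0456), and the Y-linked Uty and Ddx3y were higher by 0.60 (adjusted P = 0.0396) and 0.78 (adjusted P = 0.0324). Between Vehicle timings Slc32a1 (0.59), Slc1a2 (0.46) and Hbb-bs (0.64) were higher in the late group, and Kdm5d (-0.59) and Eif2s3y (-0.90) lower. These were 1 of 6 neuron, 1 of 4 astrocyte, 1 of 4 red cell and 2 of 4 Y-linked genes tested. Between SAFit2 timings the genes of glia and neurons that passed were higher in the late group, with log2 fold changes of 0.86 for Aqp4, 0.85 for P2ry12, 0.64 for Slc1a2, 0.55 for Mog, 0.51 for Slc17a6 and 0.50 for Cx3cr1, as was Ddx3y at 0.60, and the cartilage genes Comp (-2.11) and Col2a1 (-1.53) were lower. The calls between SAFit2 timings were 2 of 4 astrocyte, 2 of 4 microglia, 1 of 4 oligodendrocyte and 1 of 6 neuron genes tested. To these came 1 of 4 Y-linked and 2 of 3 bone and cartilage genes tested. No gene of the fibroblast, motor neuron or sensory ganglion lists passed in limma in these comparisons, and at the early timing no gene of these lists did.

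The genes most like the 8 were sought among the other 16757 genes tested, by the Pearson correlation of log2 CPM with the mean of the 8 over the 22 libraries after the group means were taken away. Tnni2 led with r = 0.84 (Spearman's rho 0.66), followed by Ttn with r = 0.81 (rho 0.61), and no gene compared reached 0.9. Trdn, Myom2 and Ckmt2 did not pass the filter on low values and so were not ranked. Slc47a1, an organic cation exporter, had r = 0.75 (rho 0.83), Pgam2 0.73 (0.62), Slco2a1, a prostaglandin carrier, 0.71 (0.61), Megf6 0.70 (0.48), Msln, mesothelin, 0.70 (0.77) and Zc3hav1l 0.69 (0.42). The other two of the 10 have no symbol in the table. Without the 2 high libraries r was 0.30 for Tnni2, 0.35 for Ttn, 0.53 for Pgam2, 0.62 for Slc47a1 and 0.53 for Msln, over 20 libraries. It was lower for Slco2a1 (0.17), Megf6 (0.18) and Zc3hav1l (0.24). Msln, Slc47a1 and Megf6 were not highest in the pair, with up to 78, 44 and 98 reads in the other libraries against 33, 28 and 50 in replicate 3.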

How the data were processed

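Total RNA of lumbar spinal cord was sequenced as directional mRNA libraries from 22 mice. Per the labels and methods, the authors trimmed reads (Trimmomatic), aligned them to mm10 (HISAT2), counted them per gene with featureCounts and scaled library sizes with edgeR (TMM). They deposited log2 CPM, in which genes at 0 reads share 1 floor value. Read numbers recovered from these values were whole for 100.0% of them (tolerance 0.02 reads). They gave a median depth of 17732341 reads on genes, and intervals and floors from them cover counting error only.

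Group comparisons used limma 3.58.1 (R 4.3.3) on the deposited log2 CPM, with 4 group means, a variance trend, and genes that reached -1 in 5 or more libraries. A gene passed at P under 0.05 after Benjamini-Hochberg adjustment together with at least a 1.2-fold change. P-values set each difference against a spread between mice that was pooled over the 4 groups, not taken from the compared groups alone. For Tnnt3 the SD was 3.68 in Late SAFit2 and 0.99 in Late Vehicle, with 1.85 in Early SAFit2 and 1.02 in Early Vehicle. A pooled value is thus too small for Late SAFit2, and the late P-value of Tnnt3 does not reflect the spread within that group. The script was tested on simulated data. Alternatives were other filters, pseudocounts of 0.5 and 2, median centring, the 2 groups alone, the replicate number as a block, voom, no variance trend, removal of the GC and length trend, and leaving out each library. Leaving out Late SAFit2 replicates 3 and 5 together was added after the data were seen.

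The members and the 20 marker lists were chosen with earlier results of these data known. The result of 1 list is not reported here. Named genes are the 8 members, list genes that passed in any comparison or have high mean levels, and the 10 genes most like the members. List genes described for their level in the 2 high libraries were chosen after their values were seen. Gene positions and lengths came from GENCODE M21 (GRCm38), and promoters from RefSeq (GRCm38.p6). Promoter entries matched 8 of the 10 symbols, and Tnnt3 and Tcap had none.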

Additional observations from a re-analysis of the deposited data

Results flagged for a closer look

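Within a group, 4 of the 32 combinations of gene and group held a library whose gap to its neighbour was large for the range of the group (Dixon's criterion, 95%). The criterion flags about 1 in 20 by chance only for normally distributed values. Here many values are tied at the floor of 0 reads, so the number of flags cannot be set against that rate. None of the flags involved Late SAFit2, where the 2 high libraries sit close together. Mylpf was lowest in Early Vehicle replicate 4, at a log2 CPM of -3.15, the floor (0 reads, next 23). Tnnc2 was highest in Late Vehicle replicate 6, at -0.76 (6 reads, all others 0). Myh4 was highest in Early SAFit2 replicate 4, at 0.88 (33 reads, next 2), and in Late Vehicle replicate 6, at -0.41 (8 reads, next 2).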

How the results depend on the processing

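At the late timing 1 of the 8 genes passed. None did with the stricter filter (0 or more in 11 libraries, 16.1% of all genes), under which only 2 of the 8 were tested and Tnnt3 was not. None did with the 2 groups alone (0% of all genes), with voom (5.23%) or without the variance trend (0.37%). The same held with the GC and length trend removed (alone or with the replicate block, 0%) and without both Late SAFit2 replicates 3 and 5 (0.00596%). At pseudocounts of 0.5 and 2, 3 of the 8 passed (11.9% and 11.2% of all genes). Leaving out 1 library gave 0 to 5 late calls and 0 to 4 between SAFit2 timings, while calls over all genes ran from 1 to 4971 and from 2201 to 3957. Between SAFit2 timings 0 of the 8 passed with the stricter filter, where 3364 of 14667 genes did. The number was also 0 with the 2 groups alone (3666 of 16765 genes), voom (2991), no variance trend (3028) or both libraries out (1980). It was 2 with a pseudocount of 2 (3333 of 16765 genes). It was also 2 with the GC and length trend removed, alone (3393 of 16205 genes) or with the replicate block (3264). The late mean difference moved from 2.24 to 0.12 without both libraries. The cause was not tested. The early, Vehicle timing and early minus late comparisons had 0 calls among the 8 under every alternative run. Whether replicate numbers pair the mice is not known here. Residuals of same-numbered mice correlated between -0.236 and 0.317, with 2 of 10 pairs over 0.1, which cannot decide it. With the replicate number as a block, 3 genes passed late (18.8% of all genes). Apart from Acta1 and Mylpf, the genes had a median of at most 6 reads in the 20 libraries other than the high pair, which limits the precision of their values.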
